A study of Fukomys damarensis with 47 samples.

Results

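Gene expression was compared between queens and solitaires of the Damaraland mole-rat in cells cultured from the long bones, using 9 of the 47 RNA-Seq libraries of the series. The 5 queens (DVF007, LAF007, MAF006, NOF009 and WAF014) were females labelled as breeders. By the study's methods, queens were moved to a tunnel system of their own with an unrelated male. The labels do not give the litters of these 5 queens. The 4 solitaires (G1F025, G4F020, MAF003 and WEF001) were females that lived alone and did not breed. Both groups had left the natal group, so the comparison asks what differs with breeding status when leaving the group does not differ. Breeding status and living with a male or alone cannot be told apart in it. The members were chosen by the labels for social status, bone and treatment, and all 9 cultures had received vehicle and no estradiol. Queens were 1004 to 1132 days old and solitaires 1105 to 1231 days. Cells came from the pooled long bones of 1 animal per library and were enriched for stromal cells of the marrow (bMSCs) by their attachment to the plate.

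Damaraland mole-rats are cooperative breeders in which one queen reproduces and most other females help. Bone is built by osteoblasts, which arise from marrow stromal cells, and is resorbed by osteoclasts, which arise from the myeloid lineage that also gives macrophages. Cultures of attached marrow cells hold stromal cells together with macrophages and other blood cells, and in a bulk library fewer cells of a type and less RNA per cell cannot be told apart.

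The 9 libraries held 6355774 to 12241076 counts in queens and 6507857 to 10273237 in solitaires. Animals are named by natal colony, the letters and digits before the F. The study used natal colony to stand for litter and date of sacrifice. The labels give the sisters of a colony ages that differ slightly, such as 1005 and 1006 days in DV. Only colony MA held both a queen and a solitaire, MAF006 and MAF003. In the direct comparison, status, colony, date of sacrifice and age therefore cannot be told apart in the other 7 colonies. Each of these 7 colonies also held a helper, a nonbreeding sister kept in the natal group. The 7 helpers were used to compare within colonies: a fit to 16 libraries with natal colony as a block set each queen or solitaire against her own sister. COL1A1, the main collagen of bone, was counted in all 9 libraries, at 4.74 to 11.28 log2 CPM (CPM being counts scaled to the library total). ENG, a surface marker of bMSCs, was low, at 0.06 to 4.30 log2 CPM. LAPTM5, a membrane protein of lysosomes in blood cells, was counted in all 9 libraries, at 6.72 to 10.22 log2 CPM.

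MAF006 lay at the extreme of the cultures for the sums of several lists. The 23 stromal and matrix genes summed to 2413 CPM in MAF006 and to between 4870 and 14107 in the other 8 libraries. The 7 osteoblast and mineral genes summed to 170.3 CPM in MAF006 and to between 634 and 3198 in the others. Pan-leukocyte genes, 9 in all, reached their highest sum in MAF006, at 3064 CPM. NOF009 came next for the stromal sum, at 4870 CPM, and for the pan-leukocyte sum, at 2200 CPM. Values are therefore also given without colony MA.

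In the fit blocked by colony, 2 of 11047 genes passed a false discovery rate (FDR) of 10%, which is 0.0181% of the genes, and both were higher in queens. An FDR of 20% was passed by 7 genes (0.0634%), 6 higher in queens (0.0543%) and 1 lower. At an unadjusted p under 0.05, 538 genes were higher in queens (4.87%) and 484 lower (4.38%), where 552 in all would pass by chance. In the direct fit of the 9 libraries no gene passed an FDR of 10% (0%) or 20%, with edgeR's smallest adjusted p at 0.990 and 259 genes (2.34%) at an unadjusted p under 0.05. Without colony MA the blocked fit called 0 genes at an FDR of 10%, and 391 genes had an unadjusted p under 0.05. None of the 7 genes has a symbol in the sources used here, which name 1147 of the 33562 identifiers.

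The largest called difference belonged to ENSFDAG00000005799, which the study lists under bone resorption. Its level was 0.69 log2 CPM in DVF007, 4.15 in LAF007, 4.56 in MAF006, 5.45 in NOF009 and 4.54 in WAF014, against 3.06 in G1F025, 3.35 in G4F020, -0.70 in MAF003 and 4.36 in WEF001. The groups overlapped, since DVF007 lay below 3 of the solitaires. Within colonies they parted, in the same sister pairs by which the blocked fit picked the gene, so this order is no independent evidence. All 4 queens with a helper sister were above her, by 1.81 to 3.86 on the log2 scale, and all 3 solitaires with a helper sister were below her, by a difference of -0.66 to -0.59. The MA queen exceeded the MA solitaire by 5.27. The blocked log2 fold change was 4.24 (SE 0.54, edgeR adjusted p = 0.0283), and without colony MA it was 3.63 (SE 0.49, adjusted p = 0.163). Counts were as low as 4 in MAF003 and 3 in the helper DVF008.

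ENSFDAG00000005003, the other gene past an FDR of 10%, showed the same order within colonies. It was picked by the same fit, so its order is no independent evidence either. The share of all genes with this order was not computed. Its level was 5.57 log2 CPM in DVF007, 4.85 in LAF007, 8.06 in MAF006, 8.16 in NOF009 and 4.68 in WAF014, and 5.81, 6.55, 5.35 and 7.61 in G1F025, G4F020, MAF003 and WEF001. The means of log2 CPM differed by -0.07, and the direct edgeR fit gave a log2 fold change of 0.45 (SE 0.83). All 4 queens exceeded their helper sisters, by 0.62 to 1.39, and all 3 solitaires were below theirs, by a difference of -2.06 to -0.96. Blocked by colony, the log2 fold change was 2.53 (SE 0.31, edgeR adjusted p = 0.0283). For both genes the difference between the 4 and the 3 sister pairs had an exact two-sided permutation p of 0.0571, the smallest that 7 pairs can give, so this test could not pass 0.05.

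**Figure D1:**
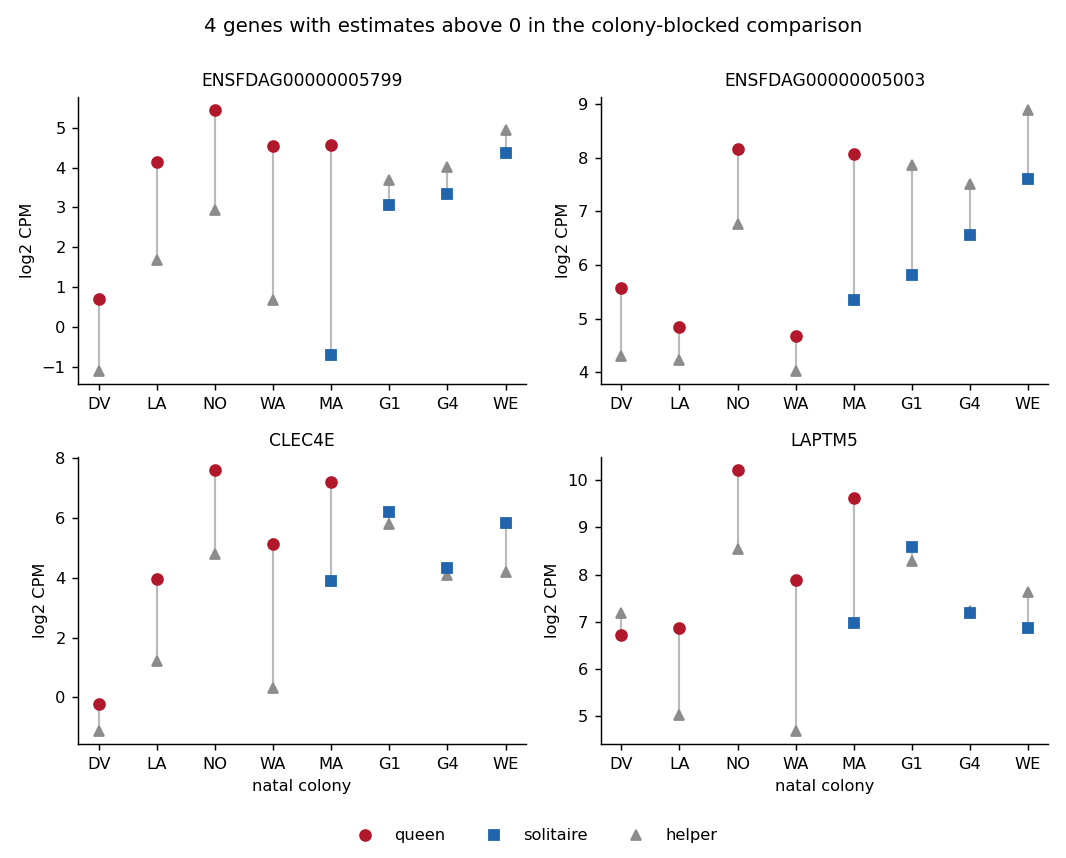
Level (log2 CPM, y axes) of 4 genes in every long bone vehicle culture, by natal colony (x axes); red circles are queens, blue squares solitaires and grey triangles helpers, and a line joins the sisters of a colony. For ENSFDAG00000005799 and ENSFDAG00000005003 each queen lies above her sister and each solitaire below hers, while the levels of queens and solitaires overlap across colonies.

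Among the 19 marker and pathway lists, myeloid genes had the largest median in the blocked fit. Of 14 myeloid genes, 12 had a log2 fold change above 0, against 52.1% of all genes. Their median was 1.82, against 0.03 over all genes. None passed an FDR of 20%, and 8 had an unadjusted p under 0.05 with higher estimates in queens, as had 4.87% of all genes. Without colony MA all 14 were above 0, as were 6187 of all 11047 genes, and their median was 1.56. In that fit 4 of them had an unadjusted p under 0.05, as had 2.14% of all genes with higher estimates. In the direct comparison of the means of log2 CPM, 8 of the 14 were above 0, with a median difference of 0.19. The direct edgeR fit of the same 9 libraries is on the scale of the blocked fit. In it only HPGDS was below 0 (-1.48), and the others ran from 0.25 (GAB3) to 1.70 (GPR65). The list was put together with earlier results of these animals known, so its direction is not independent evidence.

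Summed over the list, myeloid genes reached 35.1 CPM in DVF007, 138 in LAF007, 955 in MAF006, 1368 in NOF009 and 260.2 in WAF014. Solitaires had 329.7 CPM in G1F025, 154 in G4F020, 75.9 in MAF003 and 319 in WEF001. NOF009 and MAF006 were above every solitaire, and DVF007 was below every solitaire. Among helpers the sum was 15.5 to 365 CPM. LAF007, NOF009 and WAF014 exceeded their helper sisters, at 37.02, 251 and 15.5 CPM, whereas DVF007 did not exceed DVF008, at 37.7 CPM. Sums of pan-leukocyte genes ran from 261 to 3064 CPM in queens and from 292 to 1109 in solitaires.

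**Figure D2:**
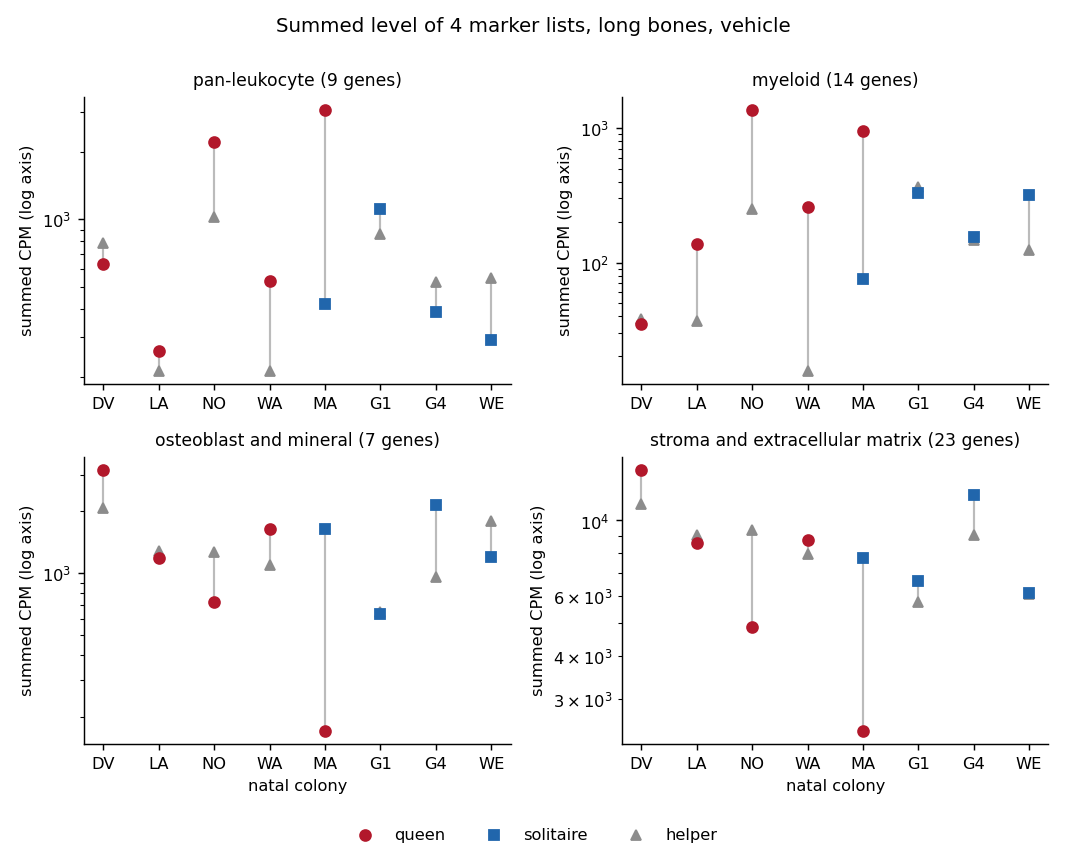
Summed level of 4 marker lists (CPM, logarithmic y axes) in every long bone vehicle culture, by natal colony (x axes), with red circles for queens, blue squares for solitaires, grey triangles for helpers and a line between sisters. MAF006 has the highest pan-leukocyte sum (3064 CPM) and the lowest osteoblast and stromal sums (170.3 and 2413 CPM), and DVF007 has the lowest myeloid sum of the 9 queens and solitaires.

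CLEC4E, a lectin receptor of macrophages, had the smallest p among the genes for which a symbol was at hand. Its level was -0.21 log2 CPM in DVF007, 3.97 in LAF007, 7.21 in MAF006, 7.62 in NOF009 and 5.14 in WAF014, and 6.19, 4.31, 3.91 and 5.83 in G1F025, G4F020, MAF003 and WEF001. Queens therefore spanned the whole range of solitaires. Queens were above helper sisters in 4 of 4 pairs, by a mean of 2.82, and solitaires in 3 of 3 pairs, by 0.76. Its blocked log2 fold change was 2.84 (SE 0.54, edgeR adjusted p = 0.222). The direct edgeR fit of the 9 libraries gave 0.95 (SE 1.13). The difference between the means of log2 CPM was -0.31 (exact two-sided permutation p = 0.937).

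The other genes of immune cells with the smallest p also had higher estimates within colonies than in the direct comparison. C3AR1, the receptor of a complement fragment, had a blocked log2 fold change of 3.19 (SE 0.77, edgeR adjusted p = 0.261) and a direct difference of 0.63. GPR65, a receptor that senses acid, had 2.74 (SE 0.59) and 0.20, and ARL11, a small GTPase of blood cells, 2.58 (SE 0.63) and 0.63, in the same order. CTSS, a lysosomal protease of antigen-presenting cells, had 2.99 (SE 0.93), a direct difference of 0.68, and 1.88 without colony MA. For LAPTM5 the estimate was 2.11 (SE 0.57) and the direct difference 0.86. CORO1A, an actin-binding protein of leukocytes, had 1.85 (SE 0.62) and 0.55. LAPTM5 was higher than in the helper sister in 3 of 4 queens and 1 of 3 solitaires. The levels of queens and solitaires overlapped for each of these 6 genes, and none passed an FDR of 20%. Their direct differences are of mean log2 CPM, and the direct edgeR fit gave larger ones, from 0.88 (CORO1A) to 1.70 (GPR65). The summed pan-leukocyte level was higher in LAF007, NOF009, WAF014 and MAF006 than in their sisters, at 261, 2200, 529 and 3064 CPM against 211, 1028, 211 and 419. DVF007 was below her sister DVF008, at 636 against 783 CPM. Among solitaires G1F025 was above her helper sister, at 1109 against 865 CPM, and G4F020 and WEF001 were below theirs. Single markers did not all follow the summed level, since CORO1A was at 3.81 log2 CPM in LAF007 and 4.74 in LAF008. The part that the number of leukocytes has in these differences was not tested.

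Pan-leukocyte genes had estimates above 0 in 9 of 9 cases, against 52.1% of all genes, with a median of 1.08. Of these, 4 had an unadjusted p under 0.05, as had 4.87% of all genes with higher estimates. Without colony MA 8 of 9 were above 0, as were 6187 of all 11047 genes, with a median of 0.60. Lymphoid and progenitor genes were above 0 in 5 of 6 cases, with a median of 0.87, which was 0.38 without colony MA. IL7R, a cytokine receptor chain of lymphoid cells, had the smallest p among them, with 2.31 (SE 0.83) and 1.16 without colony MA, and GRAP2, an adaptor of T cells, had 1.26 (SE 0.78) and 0.46. HPGDS was the single myeloid gene lower in every queen than in every solitaire, and it is named after its values were seen; this order held for 0.543% of all genes, and its blocked log2 fold change was -0.14 (SE 0.77).

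Bone resorption was described by 7 osteoclast genes, none of which passed an FDR of 20%. Their median log2 fold change was 0.33, with 5 of 7 above 0, and 0.96 without colony MA, with 6 of 7 above 0. CTSK, the collagen-degrading protease of osteoclasts, was at 7.10 to 9.53 log2 CPM in queens and 7.25 to 8.29 in solitaires, and the groups overlapped. Its blocked log2 fold change was 0.33 (SE 0.49, edgeR adjusted p = 0.905), or 0.96 without colony MA, and the exact two-sided permutation p of the direct difference of 0.52 was 0.349. ADAM8, a metalloprotease of osteoclasts and myeloid cells, was at -0.62 to 5.53 in queens and 0.90 to 3.18 in solitaires, with an estimate of 1.32 (SE 1.04), which was 2.03 without colony MA. CTSZ, a lysosomal peptidase, and the complement component C3 had 1.31 (SE 0.46) and 1.49 (SE 0.68), each with an unadjusted p under 0.05. The direct difference of C3 in mean log2 CPM had the opposite sign, at -0.51, and that of CTSZ was 0.75. The direct edgeR fit gave 0.99 for C3 and 1.13 for CTSZ. Lysosome genes had estimates above 0 in 12 of 18 cases, against 52.1% of all genes, with a median of 0.15. Higher estimates with an unadjusted p under 0.05 were found for 5 of them and for 4.87% of all genes. Without colony MA 14 of 18 were above 0, as were 6187 of all 11047 genes. Their median was then 0.36, and 0 had an unadjusted p under 0.05.

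The study's own gene ontology lists, which were chosen on these animals and so are no independent evidence, lay above 0 throughout. The medians were 2.51 over 5 bone resorption genes, 2.12 over 4 genes of superoxide anion generation, 1.72 over 8 of leukocyte chemotaxis and 2.85 over 8 of cytokine secretion. Only ENSFDAG00000005799 among them passed an FDR of 10%. The medians of the direct differences in mean log2 CPM were 1.36, 0.50, 0.29 and 0.76.

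Genes of osteoblasts and of the matrix had lower estimates in queens, and the medians of these lists depended on the MA pair. All 23 stromal and matrix genes were below 0 in the blocked fit, with a median of -0.97. Of these, 5 had an unadjusted p under 0.05, as had 4.38% of all genes with lower estimates. Without colony MA 11 of 23 were above 0, as were 6187 of all 11047 genes. Their median was then -0.04 and none had an unadjusted p under 0.05. For 6 osteoblast and mineral genes the median was -0.70 with colony MA and 0.01 without it. The direct difference in mean log2 CPM, which includes MAF006, was above 0 for 2 of 23 stromal genes (median -0.37). It was above 0 for 3 of 6 osteoblast genes (median -0.12). COL1A1 was 7.93 in MAF003 and 4.74 in MAF006, a difference of -3.19. In the other queens COL1A1 was 11.28 in DVF007, 8.38 in LAF007, 7.89 in NOF009 and 9.22 in WAF014, and in the other solitaires 7.97 in G1F025, 9.35 in G4F020 and 7.59 in WEF001. These levels overlapped. The blocked log2 fold change of COL1A1 was -1.15 (SE 0.80, edgeR adjusted p = 0.734), and without colony MA it was 0.04 (SE 0.77). The estimates of SERPINF1, a secreted protein needed for normal mineral, and of the matrix protease MMP2 were -1.52 and -0.91, and -0.16 and 0.07 without colony MA. PHEX, an endopeptidase of phosphate balance, was 0.50 (SE 0.53) and -0.01 without the colony, and ENG -0.33 (SE 0.71) and 0.41.

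**Figure D3:**
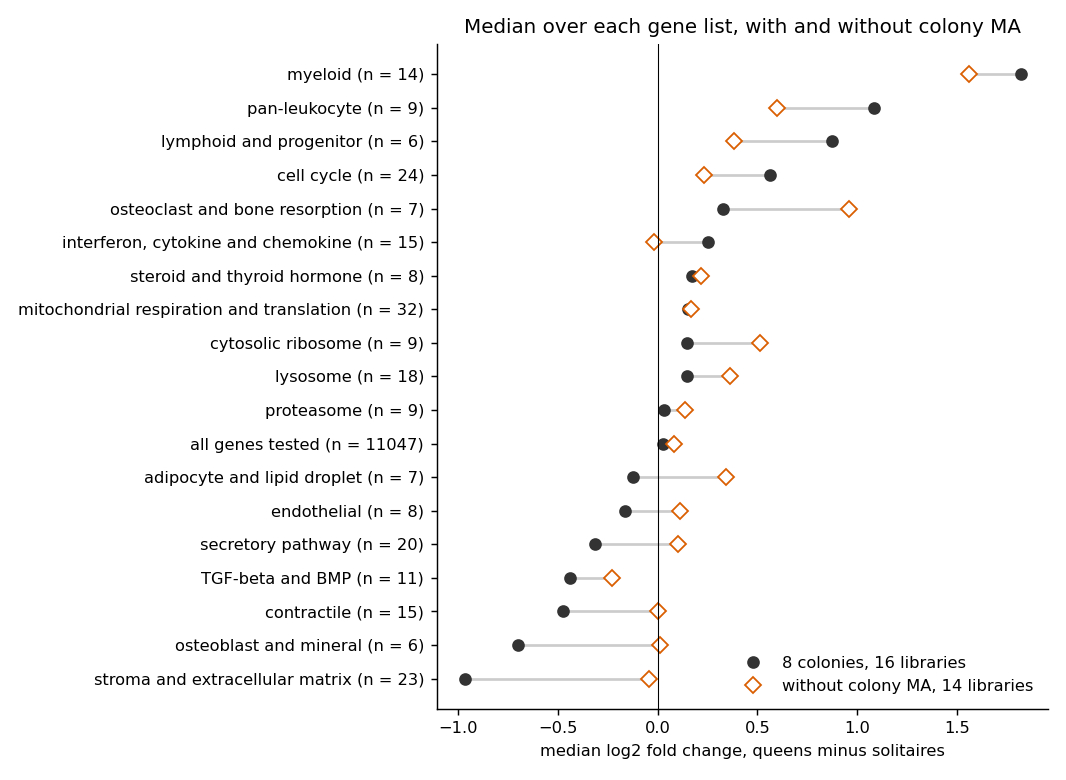
Median log2 fold change of queens against solitaires (x axis) over each gene list (y axis, with the number of genes tested), from the colony-blocked fit of 16 libraries (black circles) and without colony MA (open orange diamonds). The myeloid median stays above 1.5 without colony MA, and those of stroma, osteoblast and contractile genes come to lie between -0.04 and 0.01.

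Some genes with lower estimates in queens kept their direction without colony MA. ENSFDAG00000013289 fell in queens at an FDR of 20%. Its level was 6.73 log2 CPM in DVF007, 7.99 in LAF007, 5.12 in MAF006, 6.55 in NOF009 and 7.21 in WAF014, against 7.68, 8.35, 8.12 and 8.50 in G1F025, G4F020, MAF003 and WEF001, so LAF007 alone reached into the range of solitaires. All 4 queens were below their helper sisters and all 3 solitaires above theirs. This gene was picked by p in the fit that uses these pairs, so their order is not independent evidence. The blocked log2 fold change was -2.13 (SE 0.38, edgeR adjusted p = 0.187), and -1.58 (SE 0.35, adjusted p = 0.862) without colony MA. ENSFDAG00000006073 followed with -2.09 (SE 0.38, adjusted p = 0.210).

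SLIT2, a secreted guidance ligand of ROBO receptors, had the smallest p among genes with a symbol and lower estimates. It was at 5.95 log2 CPM in DVF007, 5.92 in LAF007, 4.11 in MAF006, 5.79 in NOF009 and 5.96 in WAF014, and at 6.02, 7.17, 6.26 and 5.75 in G1F025, G4F020, MAF003 and WEF001. Except for MAF006, queens lay close together, and WEF001 was below 4 of the 5 queens. All 4 queens were below their helper sisters, by a difference of -0.84 to -0.09, and all 3 solitaires above theirs, by 0.40 to 0.88. SLIT2 too was picked by p in the fit that uses these pairs. The blocked log2 fold change was -1.40 (SE 0.33, edgeR adjusted p = 0.253), and -0.93 (SE 0.33) without colony MA.

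ERO1A, an oxidase that helps form disulfide bonds in the endoplasmic reticulum, was at 6.82 to 8.82 log2 CPM in queens and 8.32 to 9.42 in solitaires. LAF007, at 8.82, and WAF014, at 8.42, were the only queens above the lowest solitaire. ERO1A had a blocked log2 fold change of -1.69 (SE 0.42, edgeR adjusted p = 0.269) and a direct difference of -1.07 (exact two-sided permutation p = 0.0476, adjusted over the named genes 0.351). Over all genes tested, the direct edgeR fit gave ERO1A an adjusted p of 0.990. It belongs to 20 genes of the secretory pathway, of which 7 had estimates above 0, with a median of -0.31 and of 0.10 without colony MA. CALU, a calcium-binding protein of the same compartment, had -1.13 (SE 0.39), and -0.56 without colony MA.

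The other genes with lower estimates and the smallest p have varied roles. DSEL, which modifies dermatan sulfate chains, had -1.34 (SE 0.37). GLIPR1 and ATL1, a GTPase of the endoplasmic reticulum, had -1.39 (SE 0.42) and -1.43 (SE 0.44). ADD2, a protein of the membrane skeleton, had -1.94 (SE 0.62), SEMA6D, a semaphorin, -1.17 (SE 0.39), and SLC41A2, a magnesium transporter, -1.15 (SE 0.39). ARHGEF25 had -2.21 (SE 0.75), and MAF006 was at -1.47 log2 CPM, below the range of 2.33 to 3.85 in all other queens and solitaires. None of these 7 genes passed an FDR of 20%. Without colony MA their estimates lay between -1.08 and -0.55.

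**Figure D4:**
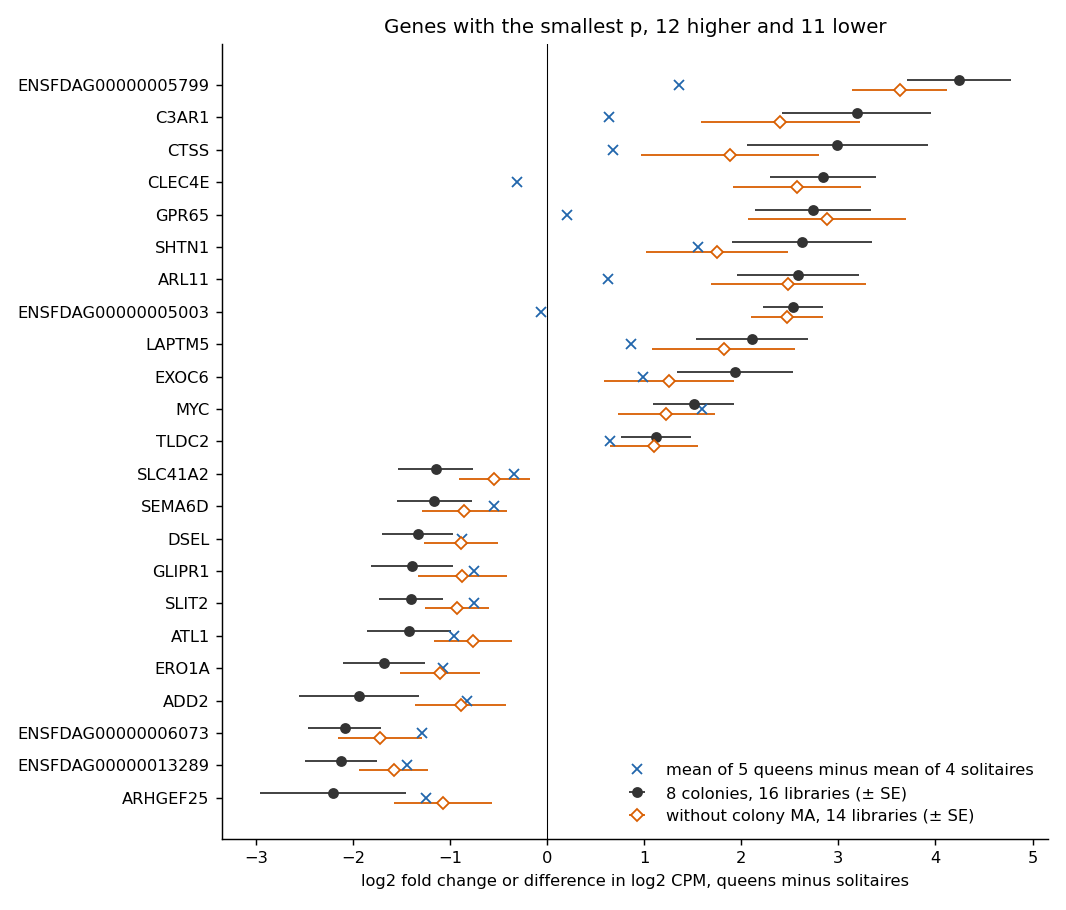
Log2 fold change of queens against solitaires (x axis) for the genes with the smallest p, 12 with higher and 11 with lower estimates (y axis), from the colony-blocked fit with colony MA (black circles) and without it (open orange diamonds), with standard errors as bars, and the direct difference of the group means in log2 CPM (blue crosses). Estimates keep their sign without colony MA, and that of MYC lies close to the direct difference (1.51 against 1.59), while those of CLEC4E (2.84 against -0.31) and ENSFDAG00000005003 (2.53 against -0.07) do not. The direct edgeR fit, not shown, gave 0.95 for CLEC4E and 0.45 for ENSFDAG00000005003.

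MYC, a transcription factor of growth and proliferation, did not overlap between queens and solitaires in the direct comparison. It was at 3.64 log2 CPM in DVF007, 3.61 in LAF007, 3.72 in MAF006, 3.75 in NOF009 and 3.74 in WAF014, and at 2.15 in G1F025, 2.23 in G4F020, 1.71 in MAF003 and 2.29 in WEF001. The queens lay within a narrow range, above all solitaires. Every queen was above every solitaire in 0.425% of all genes tested. The direct difference was 1.59 (exact two-sided permutation p = 0.0159, the smallest that 9 animals can give, adjusted over the named genes 0.268). Over all genes tested, the direct edgeR fit gave MYC an adjusted p of 0.990. Counts of MYC were low, at 92 to 162 in queens and 30 to 40 in solitaires.

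Helpers lay between 2.58 and 3.85 log2 CPM of MYC, above every solitaire and in part above the queens. MYC was higher than in the helper sister in 3 of 4 queens, by a mean of 0.32, and lower in 3 of 3 solitaires, by a mean difference of -0.83. The MA queen exceeded the MA solitaire by 2.01. With the block, the log2 fold change was 1.51 (SE 0.42, edgeR adjusted p = 0.300) and 1.23 (SE 0.50) without colony MA. In the 5 older colonies, with animals at least 1075 days old, it was 1.95 (SE 0.58, adjusted p = 0.203). Those colonies held all 4 solitaires but only MAF006 and NOF009 of the queens.

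RHOJ, a small GTPase best known from endothelial cells, showed the reverse order. It was at 7.31 log2 CPM in DVF007, 7.38 in LAF007, 6.54 in MAF006, 6.50 in NOF009 and 7.31 in WAF014, and at 7.63, 8.10, 7.84 and 8.04 in G1F025, G4F020, MAF003 and WEF001. The groups did not overlap, an order shared by 0.543% of all genes, which is also below the share expected by chance. The direct difference was -0.89 (exact two-sided permutation p = 0.0159, adjusted over the named genes 0.268). Over all genes tested, the direct edgeR fit gave RHOJ an adjusted p of 0.990. The blocked log2 fold change was -0.84 (SE 0.30, edgeR adjusted p = 0.421) and -0.52 (SE 0.34) without colony MA. MYC and RHOJ were the only 2 of the 59 named genes whose groups did not overlap.

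**Figure D5:**
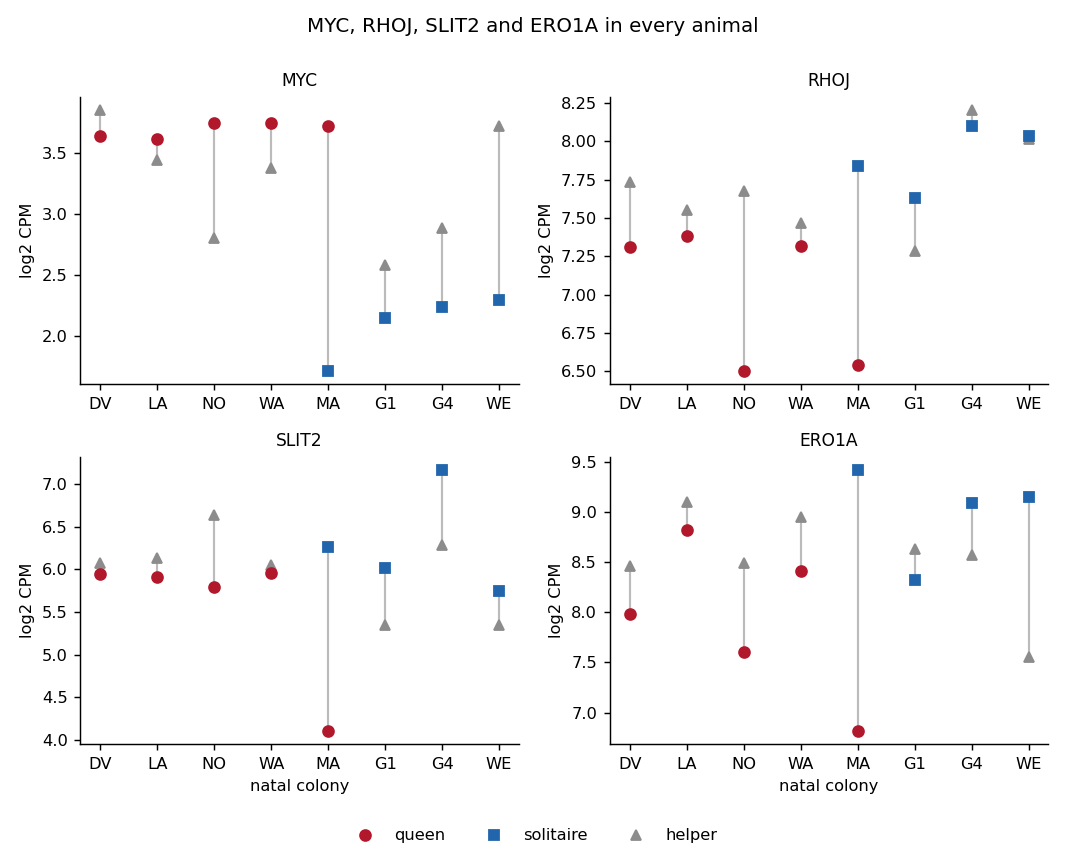
Level (log2 CPM, y axes) of MYC, RHOJ, SLIT2 and ERO1A in every long bone vehicle culture, by natal colony (x axes), with red circles for queens, blue squares for solitaires, grey triangles for helpers and a line between sisters. For MYC the queens lie between 3.61 and 3.75 and the solitaires between 1.71 and 2.29, and for RHOJ every queen lies below every solitaire.

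The lumbar vertebrae of 3 of the queens (DVF007, LAF007 and WAF014) and all 4 solitaires were also cultured with vehicle, and their libraries entered no fit above. MYC was at 3.23, 3.21 and 3.63 log2 CPM in these queens and at 1.30, 1.96, 2.34 and 2.13 in G1F025, G4F020, MAF003 and WEF001. RHOJ was at 6.57, 6.52 and 6.55 in the queens and at 8.004, 8.29, 7.72 and 7.27 in the solitaires. Neither gene overlapped between the groups in this bone either. With 7 animals the smallest exact two-sided permutation p is 0.0571. In the vertebrae 5.16% of genes were higher in every queen and 6.45% lower, and in both bones together 0.118% and 0.235%. The 3 queens were at most 1006 days old and every solitaire at least 1105, so status and age cannot be told apart there. CLEC4E, LAPTM5 and ENSFDAG00000005799 had lower means in queens than in solitaires in the vertebrae, by a difference of -1.66, -0.62 and -1.45, with groups that overlapped. ENSFDAG00000005003, higher in queens in the blocked long bone fit, was below every solitaire in each of the 3 queens in the vertebrae. Its means there differed by -4.54. The vertebra values have no colony block and lack MAF006 and NOF009. In the long bones these were the highest queens for CLEC4E, LAPTM5 and both of these unnamed genes. The vertebra differences and the blocked long bone estimates are therefore not a like-for-like comparison of the bones.

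In the other gene lists no member passed an FDR of 20%. For comparison, 52.1% of all genes were above 0 in the blocked fit, and 6187 of 11047 without colony MA. TGF-beta and BMP genes had estimates above 0 in 1 of 11 cases, with a median of -0.44, which was -0.23 without colony MA. GREM1, a secreted antagonist of BMPs, had -1.36 (SE 0.47), and ACVR2A, an activin receptor, -0.67 (SE 0.30), or -1.41 and -0.42 without colony MA. TGFBR3, a TGF-beta co-receptor named after its values were seen, had -0.44 (SE 0.37). It was lower in every queen than in every solitaire, as were 0.543% of all genes, a share below that expected by chance. Contractile genes were above 0 in 7 of 15 cases (median -0.47, and 0.00 without colony MA), with FILIP1L at -0.79 (SE 0.30) and MYL4, a myosin light chain, at -1.54 (SE 0.67), which was -0.38 (SE 0.51) without colony MA. Endothelial genes were above 0 in 4 of 8 cases (median -0.16, and 0.11 without colony MA), and FLI1, a transcription factor of blood and endothelial cells, had 1.47 (SE 0.77), of which 0.16 remained without colony MA.

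Cell cycle genes were above 0 in 23 of 24 cases, with a median of 0.56, and without colony MA in 17 of 24, with a median of 0.23. The direct difference of the group means, over 9 libraries and without the block, was above 0 for 7 of 24, with a median of -0.15. KIF23 and CENPW, which act in cell division and at the centromere, had 0.82 (SE 0.37) and 0.76 (SE 0.33), or 0.47 and 0.73 without colony MA. The 9 cytosolic ribosome genes were likewise all above 0 in the blocked fit (median 0.15, and 0.51 without colony MA), with RPL37A at 0.27 (SE 0.43) and RPS21 at 0.30 (SE 0.50), and the direct difference of group means was above 0 for 1 of 9 (median -0.28). The helper WEF002 stood apart for these genes, at 12121 CPM against 2952 to 5347 in the other 15 libraries. Mitochondrial genes were above 0 in 26 of 32 cases (median 0.15), with TOMM70, an import receptor, at -0.46 (SE 0.27) and COA5, an assembly factor of the respiratory chain, at 0.53 (SE 0.36), or -0.21 and 0.17 without colony MA. The median direct difference of the mitochondrial genes was -0.06.

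Proteasome genes were above 0 in 5 of 9 cases (median 0.03, and 0.14 without colony MA), and PSMB10 and PSME1, parts of the immunoproteasome and its activator, had 1.29 (SE 0.52) and 0.84 (SE 0.34), or 0.97 and 0.49 without it. Of 15 interferon, cytokine and chemokine genes 9 were above 0 (median 0.25, and -0.02 without colony MA). The chemokine CCL8 had 2.84 (SE 1.04) and IL13RA2, a decoy receptor of interleukin-13, -1.19 (SE 0.40), or 1.94 and -1.03 without colony MA. The steroid and thyroid hormone list was above 0 in 4 of 8 cases (median 0.17), with the coregulator NRIP1 at 0.76 (SE 0.36) and the deiodinase DIO2 at -1.06 (SE 0.72), or 0.18 and 0.02 without colony MA. Adipocyte and lipid droplet genes were above 0 in 3 of 7 cases (median -0.12, and 0.34 without colony MA), with the droplet coat protein PLIN2 at -0.73 (SE 0.52), or -0.10 without the colony, and DGAT1, an enzyme of triglyceride synthesis, at 0.68 (SE 0.50). Among matrix genes, PDGFRL and LAYN, a hyaluronan receptor, had -0.86 (SE 0.31) and -1.07 (SE 0.43), or -0.42 and -0.40 without colony MA. Of the remaining genes with high estimates, SHTN1, known from neuron polarity, had 2.62 (SE 0.73), EXOC6, a subunit of the exocyst, 1.93 (SE 0.60), and TLDC2 1.12 (SE 0.36); without colony MA these were 1.75, 1.26 and 1.10.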

How the data were processed

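Cells enriched for bMSCs were cultured from marrow of pooled long bones and sequenced as polyA RNA. Per the labels and the study's methods, the authors trimmed reads with cutadapt 2.3, aligned them with STAR to the Damaraland mole-rat assembly DMR_v1.0 and counted reads with a unique position per Ensembl gene, using HTSeq. The deposited table holds raw counts of 33562 identifiers in 47 libraries. The strand setting is not given in the sources used here, so genes that overlap, antisense genes and near-identical copies are uncertain. Time in culture, for which the study corrected, is not in the labels.

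A gene was tested (11047 in all) if its CPM reached 2 in 25% or more of the 47 libraries. The comparison was fitted with edgeR 4.0.16 (quasi-likelihood, TMM) in R 4.3.3 to 16 long bone vehicle libraries, 6174122 to 12783119 counts deep, with status and natal colony, inferred from animal names, as terms, and Benjamini-Hochberg adjustment at FDR 10% and 20%. Standard errors are the fold change divided by the root of F. Colony pairs sisters by the study's methods, although for G1 and G4 it found different fathers. After removal of group means, sisters' deviations correlated across genes at 0.83 (DV), 0.60 (NO), 0.58 (LA), 0.30 (G1), 0.14 (G4), 0.14 (WA), and 0.0349 (MA), with no correlation for WEF001 and WEF002 (-0.0011), and those of different colonies at a median of -0.12. No 2 libraries of a group agreed within sampling noise (chi-square per degree of freedom of at least 32.2). Each library is 1 animal.

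Levels are given as log2 CPM (prior count 2). Direct differences are between group means of these levels, which is not the scale of edgeR's direct log2 fold changes. Differences in means were tested by exact two-sided permutation (SciPy) over 126 splits of the 9 animals or 35 of the 7 sister pairs, adjusted over the 59 named genes. Most of these genes were picked by p in the blocked fit, which holds the same 9 libraries. That adjustment therefore does not cover the choice among all genes tested. Plots used matplotlib. The fit was tested on simulated data. Symbols, 1147 in all, come from part of a supplementary table of the study, its lowest identifiers, and other genes are unnamed here; the reference gene table matched 0 identifiers.

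Named are 6 lineage genes, the 2 members of each of 19 lists with the smallest p, and, per direction, the 10 genes with a symbol and 2 without one of smallest p; 1 of these genes is not reported here. The comparison, lists and tests were chosen with earlier results of these data known. Alternatives were the direct fit, no block, DESeq2 1.42.0 (size factors and Wald test), limma 3.58.1 voom, other filters, estradiol libraries added, older colonies, age as a covariate, CPM without TMM, and leaving out each animal; the fit without colony MA was chosen after seeing the data.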

Additional observations from a re-analysis of the deposited data

Results flagged for a closer look

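A culture was set apart where its gap to the nearest other value of its group exceeded Dixon's 95% critical value, 0.829 of the group's range for 4 solitaires and 0.71 for 5 queens. Of 156 groups of values tested, 15 held such a culture, and chance gives about 1 in 20. The values are those of named genes and of list sums, which share animals and, in part, genes.

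MAF006 was set apart among queens for 6 of these. It was the lowest queen for PDGFRL (4.35 log2 CPM, median of queens 5.64), GREM1 (1.03, median 2.94), SLIT2 (4.11, median 5.92) and ARHGEF25 (-1.47, median 2.44), and the highest for NRIP1 (7.88, median 6.17) and for the summed endothelial genes (1361 CPM, median 337). Estimates of these genes without colony MA are smaller in size than those with it, except that of GREM1 (-1.41 against -1.36).

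NOF009 was the highest queen for the summed osteoclast genes (3078 CPM, median 1003) and for the interferon, cytokine and chemokine genes (969 CPM, median 485). DVF007 was the lowest queen for ENSFDAG00000005799 (0.69 log2 CPM, median 4.54) and the highest for contractile genes (4374 CPM, median 2403).

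Among solitaires, G1F025 was highest for the pan-leukocyte sum (1109 CPM, median 403), lowest for the secretory pathway (11221 CPM, median 14171) and lowest for GLIPR1 (7.84 log2 CPM, median 8.99). G4F020 was lowest for NRIP1 (5.54, median 5.96) and WEF001 for ENG (0.058, median 2.67).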

How the results depend on the processing

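The number of genes past an FDR of 10%, 2 in the blocked fit, was 0 without the replicate block in the direct fit and in the fit of all 16 libraries, 0 in the direct fit with age added as a covariate, 0 with estradiol libraries added and 0 without colony MA; it was 4 with DESeq2's size factors, 71 with limma voom, 402 with DESeq2's Wald test, 436 with no filter on low counts and 56 in the colonies aged at least 1075 days. The number past 20%, 7 with the block, was 0 in those fits without a block, with or without age, and with estradiol added, 3 without colony MA, 231 with voom, 699 with the Wald test, 676 with no filter and 499 in the older colonies. At an unadjusted p under 0.05, these fits with 0 calls had 259 (direct), 406 (16 libraries), 738 (age), 1681 (estradiol added) and 391 (without colony MA) genes. The fit of the older colonies held only MAF006 and NOF009 of the queens. Leaving out each animal in turn gave 0 to 48 genes at 10% and 2 to 189 at 20%. The high counts came without DVF007 (48) or DVF008 (46), and without WEF001 (34) or WEF002 (37); it was 0 without MAF006, NOF009, NOF007, G1F025 or G1F022. The cause was not tested.

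Log2 fold changes changed sign as follows. Without the replicate block, COL1A1 was 1.14 (9 libraries) and 1.14 (16 libraries), ENG 0.72 and 0.71, and MMP2 0.0800 and 0.0823. Without colony MA they were 0.0395, 0.41 and 0.0715, and PHEX was -0.0139 and DIO2 0.0205. In the direct fit with age added, which also lacks the block and the helpers, ENG was 0.18, RPL37A -0.31 and RPS21 -0.38, and in the older colonies RPL37A was -0.0520. Leaving out 1 animal moved CTSK between -0.12 and 0.96, COL1A1 between -1.81 and 0.0395, PHEX between -0.0556 and 0.79, ENG between -0.66 and 0.41, MMP2 between -1.31 and 0.0715, DIO2 between -1.71 and 0.0208, RPL37A between -0.12 and 0.90 and RPS21 between -0.12 and 1.01. Both genes past 10% kept their direction in every fit (although the group means of ENSFDAG00000005003 differed by -0.07), and their adjusted p was 0.0193 to 0.188 (ENSFDAG00000005003) and 0.0156 to 0.160 (ENSFDAG00000005799) when 1 animal was left out. CPM without TMM factors turned the sign of no direct difference among the 59 named genes. With 4 solitaires and counts as low as 3, small differences were not detectable.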
